A study of Caenorhabditis elegans with 24 samples.

Results

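mir-61 and mir-250 are neighbouring microRNA (miRNA) hairpins of Caenorhabditis elegans, and each was counted by its 5p and its 3p arm. Every arm of both hairpins in the table was taken, by its name: cel-miR-61-3p, cel-miR-61-5p, cel-miR-250-3p and cel-miR-250-5p, also written below without the species prefix, are 4 of the 434 mature arms in the deposited count table. Small RNA was sequenced from whole embryos of the wild-type strain N2, cut out of adult worms and timed from the 4-cell stage. The groups are embryos at 60, 120, 180 and 225 min and, later, at 270, 330, 410 and 500 min. Each time has 3 samples of 50 pooled embryos, which gives 24 libraries. All groups share the strain, and none was treated. The labels do not say whether samples of 1 time were grown separately, so p-values measure only the spread between these samples, which may be technical.

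A miRNA hairpin is cut by Drosha and Dicer into a short duplex, and 1 strand of it, the guide, is usually kept by an Argonaute protein while the other is usually broken down. The ratio of the 3p to the 5p arm can therefore reflect what was kept after cutting. It is a ratio of reads assigned to each arm, and how reads were assigned was not examined. The ratio between hairpins of a cluster compares products that may begin on a shared transcript. In C. elegans larvae, miR-61 is known as a miRNA that LIN-12/Notch switches on in vulval precursor cells. miR-250 is grouped by its seed with the mir-2 family, and miR-61 with the mir-44 family.

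In the Ensembl release 115 annotation of the WBcel235 build, both hairpins lie on the minus strand of chromosome V. The mir-61 hairpin spans chrV:11770060-11770156 and comes first in the direction of transcription. The mir-250 hairpin spans chrV:11769917-11770015 and follows after a gap of 44 bases. The annotated arms are 22 bases (miR-61-5p), 21 bases (miR-61-3p), 22 bases (miR-250-5p) and 20 bases (miR-250-3p) long. The hairpins overlap 0 other annotated genes. The nearest gene is sel-11, 17 bases beyond mir-250 on the opposite strand, which encodes a ubiquitin ligase of the endoplasmic reticulum and was found as a modifier of lin-12. On the other side, F55A11.4 lies 310 bases from mir-61, also on the opposite strand.

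**Figure D1:**
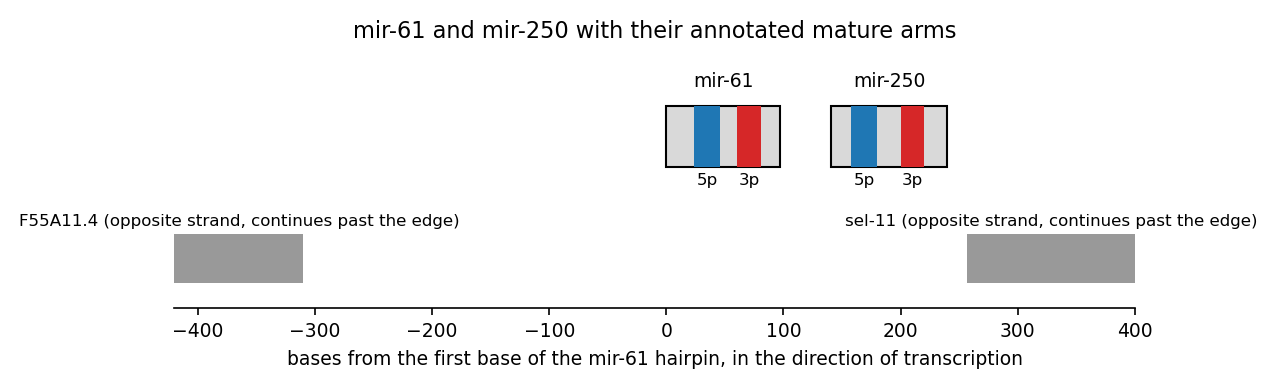
Map of the 2 hairpins (grey boxes with black outline) with their 5p arms (blue) and 3p arms (red), and the ends of the nearest genes. The x axis is the distance in bases from the first base of the mir-61 hairpin in the direction of transcription, and the mir-250 hairpin starts 141 bases after that of mir-61.

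Library totals ran from 88482 to 1594151 counts, and replicates of a stage correlated at 0.851 to 0.973 (Pearson's r of log2 CPM, counts scaled to library size). The label "embryo" was set against marker miRNAs. The mir-35 to mir-42 hairpins, which mark early embryos, had reads for 15 of 16 arms, and their summed share was 0.0346% to 0.0698% of counts at 500 min, against 4.68% to 5.29% at 60 min. Of 10 arms that mark later larval stages and the mother's tissue, 8 had reads, with a summed share of 0% to 0.0666% over the libraries at 60 min. The let-7 and lin-4 arms had 1 to 3 reads each over all 24 libraries, and both miR-84 arms had 0. The other 4 arms had more, with 1498 reads for miR-48-5p, 168 for miR-48-3p, 64 for miR-241-3p and 46 for miR-241-5p. The muscle miRNA miR-1 took 0.118% to 0.175% of counts at 225 min and 0.0248% to 0.0599% at 500 min, against 0% to 0.00303% at 60 min. Its reads were mostly of the 5p arm, with 6073 for miR-1-5p and 308 for miR-1-3p. The neuronal lsy-6 and mir-124 hairpins took 0.0145% to 0.033% at 500 min, against 0% to 0.000541% at 60 min. The part of these shifts in the results for mir-61 and mir-250 was not tested.

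Reads of the pair came almost wholly from miR-61-3p. Over the 24 libraries cel-miR-61-3p had 241041 reads, cel-miR-250-3p 6687, cel-miR-250-5p 1944 and cel-miR-61-5p 327. By mean share of counts these were places 10, 35, 54 and 85 among the arms. Each read of a small RNA library covers a whole arm of 20 to 22 bases, so the levels are not scaled by length. The 4 arms all passed the filter on low counts, which kept 128 arms, and each differed among the 8 stages (edgeR quasi-likelihood test, Benjamini-Hochberg adjusted p = 3.38e-10 for miR-61-3p, 5.44e-08 for miR-250-3p, 0.00943 for miR-61-5p and 0.0108 for miR-250-5p). The same test called 68% of all tested arms, so a called arm is not unusual here. Below, runs without 1 library that computed scaling factors anew also applied the filter anew, which kept 134 to 139 arms. With scaling factors computed anew, the call of miR-61-5p was lost without 60 min replicate 1 or 2 (adjusted p = 0.108 and 0.054), and that of miR-250-5p without replicate 1 at 60, 225 or 500 min, replicate 2 at 60, 180, 225, 270, 410 or 500 min, or replicate 3 at 225 or 330 min (adjusted p = 0.0501 to 0.279). Each of the 4 arms had its highest mean level at 60 min, and in each the 3 libraries at 60 min lay above those of the stage next in order.

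miR-61-3p was the abundant arm of the pair and had its highest level at 60 min and a low one from 270 min on. Levels are in CPM over TMM-scaled library sizes. Its 3 libraries had 114510, 86246 and 180526 at 60 min and 47583, 30600 and 34664 at 120 min. They had 33970, 20474 and 31487 CPM at 180 min, and 18790, 25473 and 17838 at 225 min. At 270 min they had 14330, 13599 and 12542 CPM. All 3 libraries at 60 min were higher than any later library, and the libraries of 120 and 180 min overlapped, as did those of 180 and 225 min. The libraries at 270 min all lay below those at 225 min, a separation found in 22.7% of all tested arms.

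The later libraries of miR-61-3p all lay below those at 120 min. They had 12320, 7272 and 13104 CPM at 330 min and 17695, 13635 and 16458 at 410 min. At 500 min they had 22886, 20745 and 16930 CPM. In order of mean level the stages ran 60, 120, 180, 225, 500, 410, 270 and 330 min, and only 60 min stood clear of the stage next to it in this order. As a share of all counts, which needs no scaling factor, miR-61-3p took 8.88% ± 1.20 at 60 min, 4.93% ± 0.689 (120 min), 3.28% ± 0.465 (180 min) and 2.67% ± 0.433 (225 min) (SD, n = 3). The later shares were 1.58% ± 0.199 at 270 min, 1.18% ± 0.170 (330 min), 1.25% ± 0.167 (410 min) and 1.36% ± 0.243 (500 min) (SD, n = 3). By abundance it held place 12 to 14 in the libraries at 500 min, against place 4 or 5 at 60 min. In bulk samples of whole embryos, fewer cells with a miRNA and less of it per cell cannot be told apart. Shares and CPM are relative to the other arms, so a rise of other arms cannot be told apart from these either.

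miR-250-3p, the more abundant arm of its hairpin, was likewise highest at 60 min, at a lower level. Its libraries had 3543, 2156 and 5486 CPM at 60 min, 1321, 1164 and 1248 at 120 min, and 908, 1205 and 920 at 180 min. They had 567, 588 and 533 CPM at 225 min and 267, 403 and 277 at 270 min. The libraries at 60 min stood above all others, and those of 120 and 180 min overlapped. The libraries at 225 min stood below the 180 min libraries and above the 270 min ones, separations found in 19.5% (225 against 180 min) and 22.7% (270 against 225 min) of all tested arms. The values were 339, 192 and 211 CPM at 330 min, 479, 264 and 378 at 410 min, and 471, 305 and 415 at 500 min. These last 3 stages overlapped with each other and with 270 min. The share of all counts was 0.256% ± 0.0499 at 60 min, 0.0730% ± 0.00526 (225 min) and 0.0269% ± 0.00666 (500 min) (SD, n = 3).

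**Figure D2:**
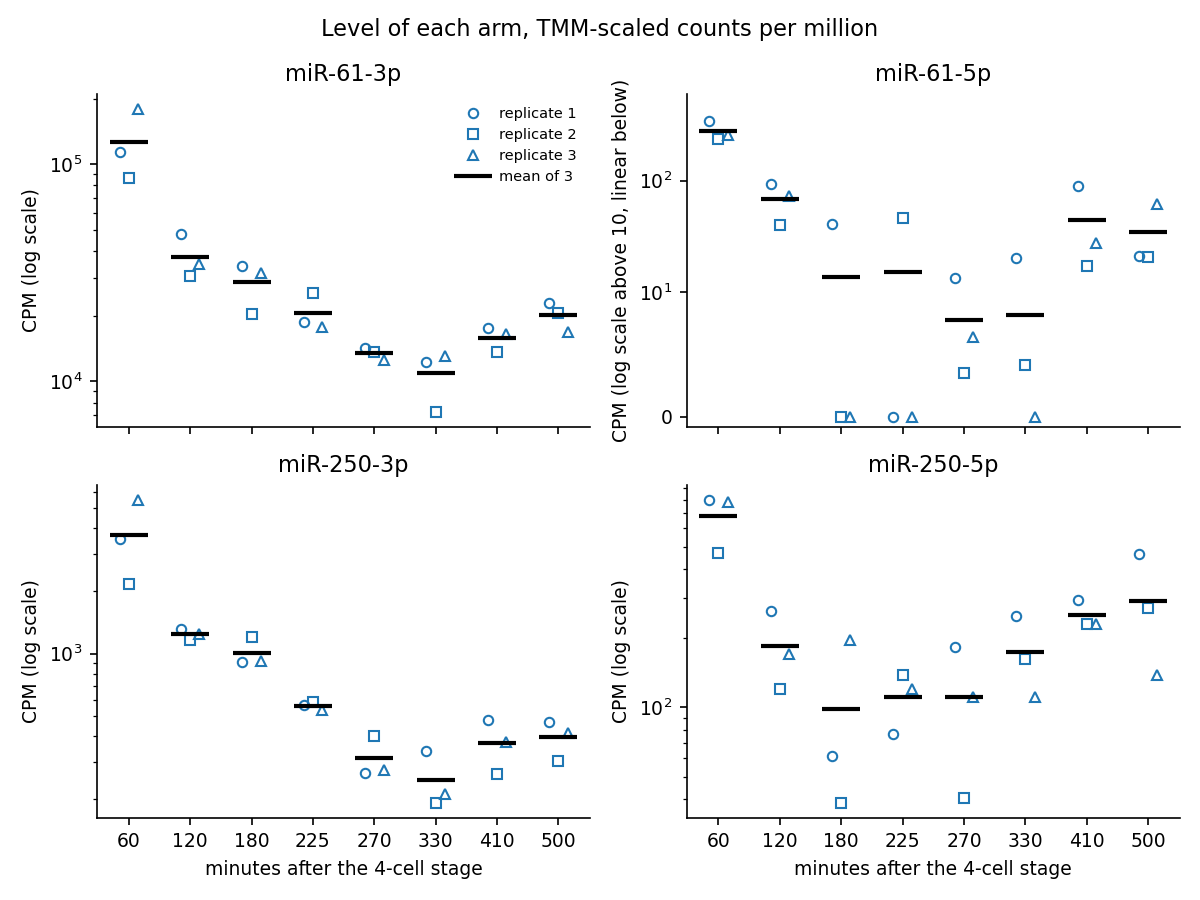
Level of each arm in TMM-scaled CPM (y axis, log scale, linear below 10 for miR-61-5p) against minutes after the 4-cell stage. Each symbol is 1 library, shaped by replicate number, and bars are means of 3; the 60 min libraries are the highest of each arm, and miR-61-5p has 5 libraries at 0.

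The 5p arms had few reads. miR-250-5p had 799, 470 and 779 CPM at 60 min, 263, 120 and 170 at 120 min, and 61.3, 38.5 and 197 at 180 min. It had 76.8, 138 and 120 CPM at 225 min, 183, 40.5 and 111 at 270 min, and 250, 163 and 110 at 330 min. At 410 min it had 292, 230 and 231 CPM, and at 500 min 464, 270 and 138. The 60 min libraries were above all others, although the highest at 500 min, with 464, came close to the lowest at 60 min, with 470. In order of mean level 500 and 410 min followed 60 min, and 180 min was last, with overlap at each step after 60 min. The counts behind these values ran from 7 to 252 reads in a library.

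miR-61-5p had 30, 23 and 53 reads at 60 min, which are 337, 235 and 253 CPM. At 120 min it had 25, 8 and 43 reads, and from 180 to 330 min 5 of the 12 libraries had 0. A count of 0 allows a share of up to 0.000398% of counts in the deepest of these libraries (180 min replicate 3) and up to 0.00291% in the shallowest (180 min replicate 2). At 410 min it had 42, 5 and 30 reads, and at 500 min 9, 3 and 13, or 21.1, 20.8 and 62.0 CPM. The 60 min libraries were above all others in CPM, and every stage after 60 min overlapped with its neighbour in the order of means. Intervals and limits here cover counting error only, since no molecular identifiers are described and amplified reads are not independent molecules.

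Between 500 and 60 min both 3p arms fell. miR-61-3p averaged 20187 ± 3017 CPM at 500 min and 127094 ± 48383 CPM at 60 min (SD of 3 libraries each), with a log2 fold change of -2.65 ± 0.38 (SE; adjusted p = 6.36e-07 by edgeR). miR-250-3p averaged 397 ± 84.2 CPM at 500 min and 3728 ± 1673 CPM at 60 min, with a log2 fold change of -3.23 ± 0.55 (SE; adjusted p = 9.51e-06 by edgeR). The 5p arms were not called: the log2 fold change was -2.98 ± 1.46 for miR-61-5p (SE, edgeR adjusted p = 0.0748) and -1.23 ± 0.75 for miR-250-5p (SE, edgeR adjusted p = 0.149). So 2 of 4 arms passed the test, both lower at 500 min, where 62.5% of all tested arms were called and 28.1% were called lower. In all 4 arms the libraries of the 2 stages did not overlap, as in 54.7% of tested arms.

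The median log2 fold change of all tested arms between 500 and 60 min was 0.30 under TMM, 0.59 under DESeq2's size factors and 0.08 under total counts. Relative to these medians miR-61-3p lay at -2.96, -2.81 and -2.78, and miR-250-3p at -3.53, -3.37 and -3.32. Leaving out 1 library with its scaling factors kept gave -2.87 to -2.31 for miR-61-3p and -3.50 to -2.84 for miR-250-3p. With the factors computed anew, leaving out 60 min replicate 1 gave -1.57 and -2.12, while the median of all arms then stood at 2.15.

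By 270 min all 4 arms were lower than at 60 min, and under TMM each fold change was larger than that at 500 min. With total counts the 3p arms had smaller ones at 270 min, at -2.49 for miR-61-3p and -2.76 for miR-250-3p. Their values at 500 min were then -2.70 and -3.25. The median of all arms under total counts was 1.212 at 270 min and 0.076 at 500 min. Relative to these medians miR-61-3p lay at -3.706 and -2.78, and miR-250-3p at -3.975 and -3.324, so both were then lower at 270 min. miR-61-3p averaged 13490 ± 899 CPM at 270 min and 127094 ± 48383 CPM at 60 min, with a log2 fold change of -3.24 ± 0.39 (SE; adjusted p = 8.11e-08 by edgeR). miR-250-3p averaged 316 ± 75.8 CPM at 270 min and 3728 ± 1673 CPM at 60 min, with a log2 fold change of -3.56 ± 0.56 (SE; adjusted p = 4.79e-06 by edgeR). miR-61-5p and miR-250-5p had log2 fold changes of -5.04 ± 1.59 and -2.61 ± 0.78 (SE, edgeR adjusted p = 0.0107 and 0.00728). The test called 40.6% of all tested arms, and 21.1% in the same direction. Libraries of the 2 stages did not overlap in any of the 4 arms, as in 51.6% of tested arms. With scaling factors computed anew, the 5p calls were lost without some libraries: miR-61-5p without 60 min replicate 1 (-3.69), 270 min replicate 2 (-4.12) or 270 min replicate 3 (-4.71), and miR-250-5p without 60 min replicate 1 (-1.29) or 2 (-1.99), 225 min replicate 3, 270 min replicate 2 or 3, 330 min replicate 2 or 500 min replicate 2 (-2.31 to -1.59).

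Between 500 and 270 min none of the 4 arms passed the edgeR test, which called 30.5% of tested arms, and 0 of the 4 had an unadjusted p under 0.05. The log2 fold changes were 0.58 ± 0.36 for miR-61-3p, 0.33 ± 0.51 for miR-250-3p, 2.06 ± 1.44 for miR-61-5p and 1.38 ± 0.75 for miR-250-5p (SE). DESeq2 called miR-61-3p at 0.69 (adjusted p = 0.012) and miR-250-5p at 1.46 (adjusted p = 0.0318). The direction of both 3p arms here rested on the scaling: with total counts the values were -0.21 for miR-61-3p and -0.48 for miR-250-3p, where the median of all arms was -0.74.

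Among the 7 steps between neighbouring stages, the one from 60 to 120 min held the only call by edgeR with TMM scaling and all libraries. miR-61-3p averaged 37616 ± 8868 CPM at 120 min and 127094 ± 48383 CPM at 60 min, with a log2 fold change of -1.76 ± 0.37 (SE; adjusted p = 0.00212 by edgeR), where 6.25% of tested arms were called and 3.91% were called lower. The libraries of these 2 stages did not overlap in any of the 4 arms, as in 21.9% of tested arms. miR-250-3p averaged 1244 ± 78.6 CPM at 120 min and 3728 ± 1673 CPM at 60 min, with a log2 fold change of -1.58 ± 0.52 that did not pass (SE; adjusted p = 0.0625 by edgeR). The call of miR-61-3p held without each of the 24 libraries when the filter and scaling factors were kept (-1.97 to -1.42). It was lost in 15 of 24 cases when both were computed anew: without replicate 1 or 2 at 60, 270, 330 or 500 min, replicate 2 at 120, 180, 225 or 410 min, or replicate 3 at 120, 225 or 330 min (-1.12 to -0.61). TMM factors ran from 0.927 to 1.65 at 120 min and from 0.567 to 0.987 at 60 min. The size of this step rested on the scaling: miR-61-3p was at -1.05 with DESeq2's size factors in edgeR (adjusted p = 0.00828) and at -0.85 with total counts (adjusted p = 0.0191), and with no filter on low counts it was not called (-1.32, edgeR adjusted p = 0.269). miR-250-3p was at -0.82 with DESeq2's size factors and at -0.60 with total counts (edgeR adjusted p = 0.257 and 0.41). It passed the edgeR test without 60 min replicate 2 (-1.86, adjusted p = 0.0238), without 180 min replicate 2 (-1.58, adjusted p = 0.0392) and with the replicate number as a block (-1.57, adjusted p = 0.0178). In the other 6 steps edgeR with TMM and all libraries called 0 of the 4 arms, and 0 had an unadjusted p under 0.05; it called 9.38% of tested arms at 180 against 120 min, 1.56% at 225 against 180 min, 3.91% at 270 against 225 min, 1.56% at 330 against 270 min, 10.9% at 410 against 330 min and 6.25% at 500 against 410 min. DESeq2 called miR-61-3p in 2 of these steps, with log2 fold changes of -0.85 at 180 against 120 min (adjusted p = 0.00275) and -0.73 at 270 against 225 min (adjusted p = 0.0404). At 180 against 120 min edgeR also called miR-61-3p lower with DESeq2's size factors (-0.85, adjusted p = 0.0393) and without 60 min replicate 1 with factors computed anew (-1.03, adjusted p = 0.0441). Without 180 min replicate 1 it called miR-61-5p lower there, with an adjusted p of 0.0421 with factors kept and 0.039 with factors computed anew, and the other libraries at 180 min had 0 reads of that arm.

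The balance of reads between the arms of mir-250 changed over the timecourse, and this needs no scaling, since both counts come from 1 library. Whether it reflects the strands kept or how reads were assigned to arms was not tested. The 5p arm took 16.2% ± 3.31 of mir-250 reads at 60 min, 12.7% ± 3.68 at 120 min, 9.01% ± 7.61 (180 min) and 16.4% ± 3.90 (225 min) (SD, n = 3). It took 26.1% ± 15.9 at 270 min, 40.9% ± 5.91 (330 min), 40.8% ± 4.98 (410 min) and 40.5% ± 13.5 (500 min) (SD, n = 3). The 9 libraries of the last 3 stages lay between 25% and 49.6%, and the 12 libraries of the first 4 stages between 3.10% and 19.0%, with no overlap. The libraries at 270 min fell in both ranges, with 40.6%, 9.13% and 28.6% in replicates 1, 2 and 3. This split of the stages was not planned and follows the values themselves. The share of other hairpins that separate in the same way was not computed.

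At 500 min the 5p share was 49.6% in replicate 1 (95% exact Clopper-Pearson interval 44.6 to 54.7, 198 of 399 reads), 47.0% in replicate 2 (35.9 to 58.3, 39 of 83 reads) and 25% in replicate 3 (17.4 to 33.9, 29 of 116 reads). At 60 min it was 18.4% (14.7 to 22.6, 71 of 386 reads), 17.9% (13.4 to 23.1, 46 of 257 reads) and 12.4% (10.7 to 14.3, 163 of 1311 reads). Replicate 3 stood below the other 2 libraries at 500 min and above all 3 at 60 min. The log2 ratio of miR-250-3p to miR-250-5p, with 0.5 added to either count, was 0.59 ± 0.85 at 500 min and 2.38 ± 0.38 at 60 min (SD of 3 libraries each). The difference of -1.79 gave p = 0.1 in an exact two-sided permutation test, the smallest p that 3 against 3 libraries allow.

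Over all 24 libraries this log2 ratio fell with time, with Pearson's r = -0.70 (permutation p = 0.00026, 0.00104 adjusted over the 4 ratios examined) and Spearman's rho = -0.74 (permutation p = 0.0001, adjusted 0.0004). The libraries farthest from the median time are the 3 at 500 min, and without 2 of them r was between -0.63 and -0.71. Within replicate numbers 1, 2 and 3, with 8 libraries each, r was -0.73, -0.70 and -0.81 (exact permutation p = 0.0427, 0.0545 and 0.0172). The labels name no batch, so the replicate number was the only split available. Of all counts, miR-250-3p averaged 0.0269% of counts at 500 min and 0.256% at 60 min, and miR-250-5p averaged 0.0198% at 500 min and 0.0486% at 60 min (means of 3 libraries).

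No steady trend with time was detected for the arms of mir-61, and whether the 2 hairpins differ in this was not tested. miR-61-5p took 0% to 0.503% of mir-61 reads in every library. Its stage mean was 0.235% ± 0.0831 at 60 min, 0.178% ± 0.0412 (120 min), 0.0401% ± 0.0694 (180 min) and 0.0600% ± 0.104 (225 min) (SD, n = 3). Later it was 0.0571% ± 0.0346 at 270 min, 0.0744% ± 0.0841 (330 min), 0.265% ± 0.207 (410 min) and 0.186% ± 0.155 (500 min) (SD, n = 3). The log2 ratio of miR-61-3p to miR-61-5p had Pearson's r = -0.09 with time (permutation p = 0.667, adjusted 0.889) and Spearman's rho = 0.09 (permutation p = 0.671, adjusted 0.894). It was 9.26 ± 1.07 at 500 min and 8.78 ± 0.60 at 60 min (SD of 3 libraries each; difference 0.48, exact permutation p = 0.6). Libraries had 0 to 53 reads of miR-61-5p, yet some differences exceeded counting error. In 60 min replicate 3 the 5p share was 0.140% (exact interval 0.105 to 0.183), and in 180 min replicate 3 it was 0% (0 to 0.014). In 180 min replicate 1 it was 0.120% (0.058 to 0.221). Stage means of the log2 ratio spanned 3.95 for mir-61 and 3.11 for mir-250. With counts of 0, the span for mir-61 rests on the pseudocount. The power to detect a steady trend was not tested.

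**Figure D3:**
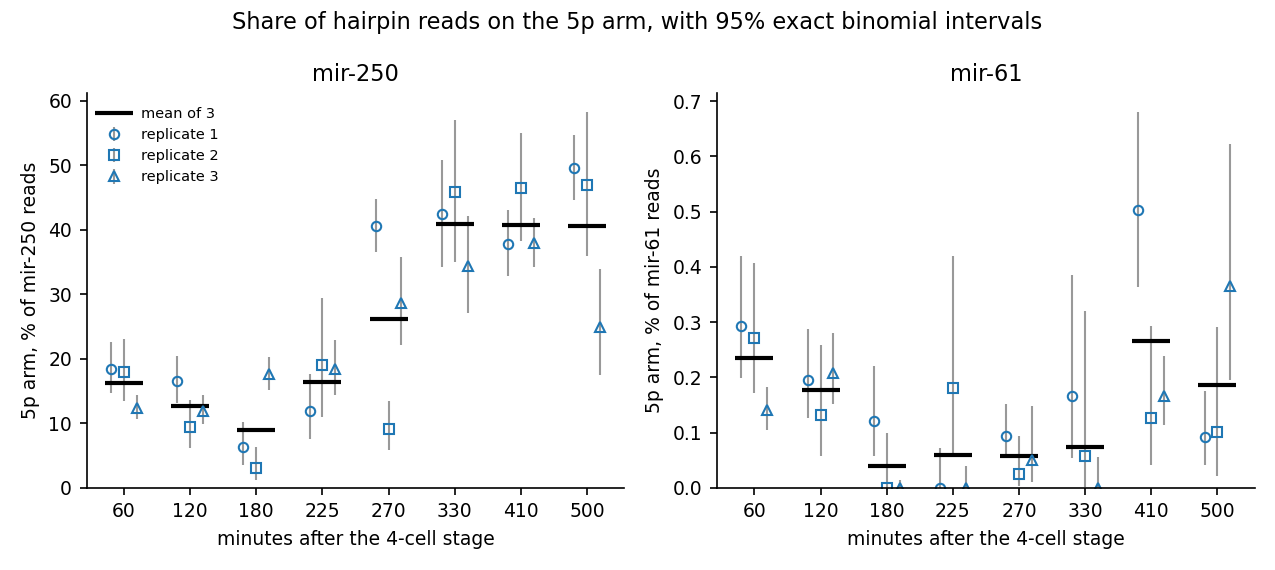
Share of hairpin reads on the 5p arm in percent (y axis, own scale for each hairpin) against minutes after the 4-cell stage, for mir-250 (left) and mir-61 (right). Symbols are libraries by replicate number with 95% exact binomial intervals, and bars are means of 3; the mir-250 libraries from 330 min on lie at 25% or above, while all mir-61 libraries lie at or below 0.503%.

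A relation of arm balance to time was also called in other hairpins. Of 36 hairpins with both arms tested, 44.4% had a log2 ratio of 3p to 5p that correlated with time (permutation test, adjusted p over the 36 hairpins, threshold 0.05). These 16 hairpins split into 8 whose 5p arm gained, or 22.2% of the 36, and 8 whose 3p arm gained. With this adjustment mir-250 had p = 0.00117 and the fourth most negative r, after mir-42, mir-66 and mir-43. mir-61 lay near the middle, with r = -0.09. Many of the 36 hairpins had an arm with 0 reads in at least 1 library, and their ratios there rest on the pseudocount. The share of called hairpins takes these in. One of them is mir-790, called with a log2 ratio of 0 ± 0 at 60 min (SD, n = 3). mir-250 had at least 7 reads of each arm in every library. Libraries of 500 and 60 min did not overlap in 55.6% of the hairpins, mir-250 among them, and mir-250 held place 23 by the size of the difference between these stages. Places above it include hairpins with an arm at 0 reads in some library, such as mir-74 (9.55), whose size depends on the pseudocount. They also include hairpins with reads of both arms in every library, such as mir-72 (2.77) and mir-58a (3.16). This set of hairpins was added after the values of mir-250 were known.

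**Figure D4:**
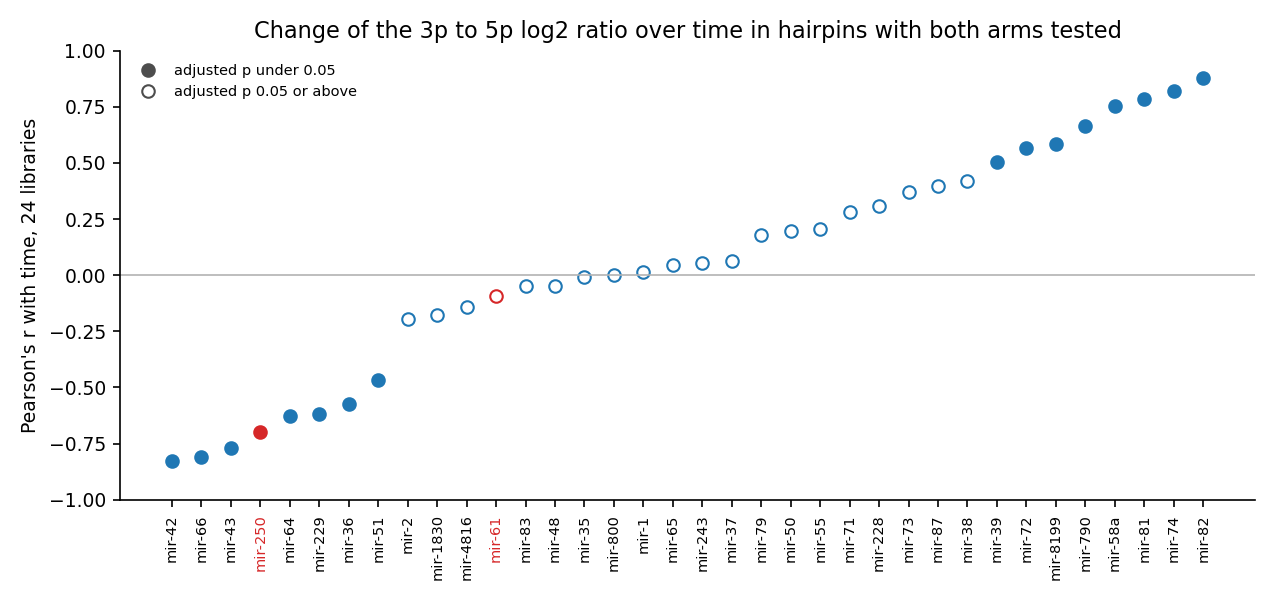
Pearson's r between the 3p to 5p log2 ratio and time over 24 libraries (y axis) for each of 36 hairpins, ordered by r. Red marks mir-250 (r = -0.70) and mir-61 (r = -0.09), and filled points have an adjusted p under 0.05.

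No trend with time was detected in the ratio between the hairpins. Summed over both arms, mir-61 had 24.5, 35.9 and 30.6 times the reads of mir-250 at 500 min, against 26.4, 32.9 and 28.9 times at 60 min, so the stages overlapped. Geometric stage means were 29.3 at 60 min, 26.0 (120 min), 25.3 (180 min), 30.3 (225 min), 31.5 (270 min), 25.8 (330 and 410 min), and 29.9 (500 min). Over the 24 libraries the ratio was lowest in 180 min replicate 2, at 16.4, and highest in 330 min replicate 3, at 40.6, with a median of 28.5 and an SD of 0.29 on the log2 scale. Its log2 value had Pearson's r = 0.03 with time (permutation p = 0.891, adjusted 0.891) and Spearman's rho = 0.02 (permutation p = 0.926, adjusted 0.926). The log2 ratio was 4.90 ± 0.28 at 500 min and 4.87 ± 0.16 at 60 min (SD of 3 libraries each; difference 0.03, exact permutation p = 0.9). The sign of this difference turned without 500 min replicate 2, at -0.10. Within replicate numbers 1, 2 and 3 the r was -0.54, 0.21 and 0.35 (n = 8 each, exact permutation p = 0.165, 0.609 and 0.4).

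The ratio of the 3p arms alone did change with time. miR-61-3p had 48.5, 67.2 and 40.6 times the reads of miR-250-3p at 500 min, against 32.3, 39.9 and 32.9 times at 60 min, and these libraries did not overlap. Geometric stage means were 34.9 at 60 min, 29.7 (120 min), 27.9 (180 min), 36.2 (225 min), 43.3 (270 min), 43.7 (330 min), 43.5 (410 min) and 50.9 (500 min). The log2 ratio rose with time, with Pearson's r = 0.58 (permutation p = 0.00219, adjusted 0.00438) and Spearman's rho = 0.69 (permutation p = 0.00028, adjusted 0.00056). Without 2 of the 3 libraries at 500 min, r was 0.47 to 0.59. Within replicate numbers it was 0.54, 0.65 and 0.61 (n = 8 each, exact permutation p = 0.169, 0.0758 and 0.105). The log2 ratio was 5.67 ± 0.37 at 500 min and 5.12 ± 0.17 at 60 min (SD of 3 libraries each; difference 0.55, exact permutation p = 0.1, the smallest possible). The summed ratio and this one share the miR-61-3p and miR-250-3p counts, so they are not separate measurements.

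**Figure D5:**
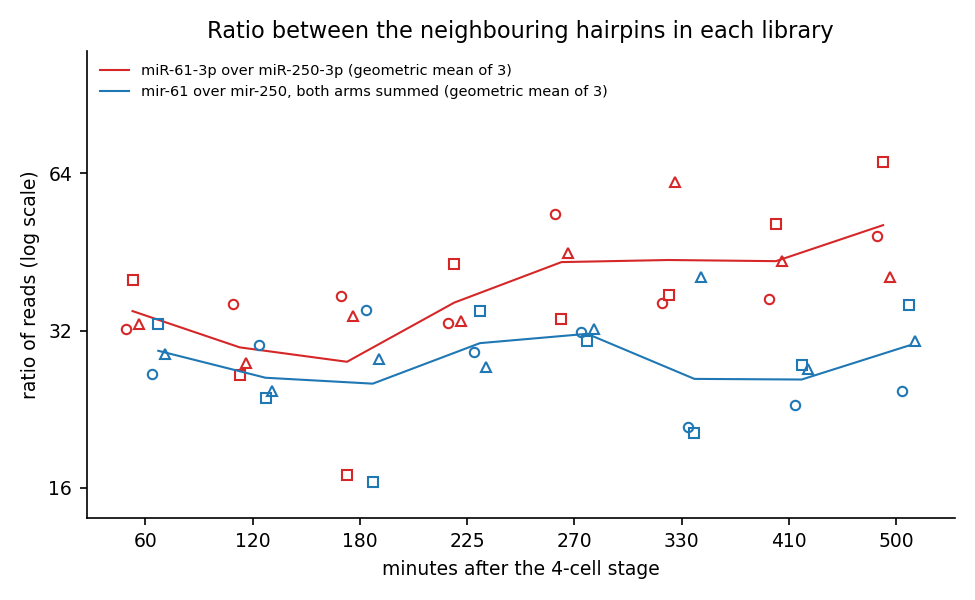
Ratio of reads (y axis, log scale) against minutes after the 4-cell stage, for miR-61-3p over miR-250-3p (red) and for the hairpins with both arms summed (blue). Circles, squares and triangles are replicates 1, 2 and 3, and lines join geometric means of 3; the summed ratio has stage means of 25.3 to 31.5, and the 3p ratio 27.9 to 50.9.

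The hairpins that share a family with mir-61 or mir-250 had arms called in both directions, as did the tested arms at large. At 500 against 60 min, 62.5% of all tested arms were called, 34.4% higher and 28.1% lower. The family lists count both arms of each hairpin, and nearly identical members could share reads, since the treatment of reads with several matches is not given in the sources used here. Of the 8 arms of mir-44, mir-45, mir-61 and mir-247, 4 were tested at 500 against 60 min: miR-44-5p was called higher (log2 fold change 1.29 ± 0.35, SE), miR-61-3p was called lower, and miR-45-3p (0.39 ± 0.56, SE, edgeR adjusted p = 0.546) and miR-61-5p were not called. miR-44-3p had 0 reads and miR-247-3p 3, against 476034 for miR-44-5p and 7725 for miR-45-3p. Mature sequences were not used, so which of these arms carry the family's seed was not examined. Calls and medians of a list may rest on arms without it. Of the 8 arms of mir-2, mir-43, mir-250 and mir-797, 6 were tested: miR-2-3p (2.75 ± 0.65) was called higher, as was miR-2-5p from 1 read at 60 min, miR-43-3p (-4.76 ± 0.49) and miR-250-3p were called lower, and miR-43-5p (-1.65 ± 1.26) and miR-250-5p were not called. The median log2 fold change was -1.13 in the first list and -1.44 in the second, against 0.30 over all tested arms. These medians take in the arms of mir-61 and mir-250, and without them they were 0.84 over 2 arms and 0.55 over 4 arms. miR-61-3p was highest at 60 min, miR-44-5p at 180 min and miR-45-3p at 270 min by mean CPM, and miR-43-3p was highest at 180 min and miR-2-3p at 410 min.

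The levels of miR-61-3p and miR-250-3p had a Pearson correlation of 0.949 over the 24 libraries (log2 CPM). Outside the pair, the same 5 arms were closest to both: miR-253-3p, miR-2209a-3p, miR-64-3p, miR-66-3p and miR-229-3p. Their correlations ran from 0.796 (miR-229-3p) to 0.908 (miR-253-3p) with miR-61-3p, and from 0.832 (miR-66-3p) to 0.906 (miR-253-3p) with miR-250-3p. The 5p arms were less like the 3p arm of their own hairpin, at 0.731 for miR-61-5p and 0.404 for miR-250-5p. Over shares of counts these values were 0.442 and 0.314. Both 5p arms had few reads, and the part of counting error in these values was not tested. These correlations are descriptions, over libraries that share the stage and the scaling factors. Taken over the 8 stage means, 2 of the 5 arms remained closest to miR-61-3p and 3 of 5 to miR-250-3p, and over shares of counts 5 of 5 and 4 of 5.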

How the data were processed

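The labels' protocols describe TRIzol extraction and a modified Illumina TruSeq small RNA kit with 15 cycles of PCR. The deposited table, used whole, holds raw counts: whole numbers, not normalized by the authors, of 434 miRNA arms by 24 libraries. The submitters' processing notes name Bowtie and HTSeq. Versions, genome build, miRNA annotation, strand use and the handling of reads with several matches were not given in the sources used. Coordinates come from Ensembl release 115 (WBcel235), which may not be the authors' build.

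Tests across arms used edgeR 4.0.16 under R 4.3.3. The filter was filterByExpr (stage as group, minimum count 10), which kept 128 arms. Libraries were scaled by TMM. All 24 libraries entered 1 robust quasi-likelihood fit with the stage as a factor, and p-values were adjusted by Benjamini-Hochberg over all tested arms, with a threshold of 0.05. The SE of a log2 fold change was derived from its F statistic. Totals ran from 88482 to 1594151 counts, and the common biological coefficient of variation was 0.706. No 2 libraries of a stage agreed within sampling noise (the lowest chi-square over its degrees of freedom was 33.9). The procedure was tested on simulated counts with known changes.

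Log2 ratios within a library used a pseudocount of 0.5 and were correlated with minutes after the 4-cell stage in Python 3.11.15 with SciPy 1.17.1 (two-sided, 100000 permutations). Groups of 3 were compared by exact permutation. Alternatives were DESeq2 1.42.0, other scalings, no filter, 6 libraries alone, the replicate number as a block, the 5 most abundant arms left out, each library left out, pseudocounts of 0.1 and 1, and libraries with under 20 reads left out. The last of these removed no library. Each library was left out with the filter and scaling factors kept, and again with both computed anew.

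The members, lists and tests were chosen with earlier results of these data known. Named arms are the 4 members, the arms of the mir-44 and mir-2 families, and the 5 arms most correlated with either 3p arm. A further rule, to name arms by a shared seed, was not applied, because mature sequences were not used here.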

Additional observations from a re-analysis of the deposited data

How the results depend on the processing

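Of 1854 recomputed values, 1781 kept their direction and their side of the threshold (counts of arms within 1.5 times), 43 were no longer past it, 7 newly passed it, 17 changed sign and 6 counts moved. Some of the values that kept their direction could not change, so this tally overstates robustness. The setting that drops libraries with few reads removed no library. Ratio differences between 500 and 60 min were also recomputed without libraries of other stages, which do not enter them. The calls of miR-61-3p and miR-250-3p among the 8 stages, at 500 against 60 min and at 270 against 60 min kept their direction and call under every alternative run. For 500 against 270 min, miR-61-3p was 0.69 with DESeq2's size factors (adjusted p = 0.0448) and 0.694 with DESeq2, but -0.21 with total counts and -0.39 without the 5 most abundant arms; miR-250-3p was -0.48 with total counts, -0.67 without those arms and -0.20 to 0.55 with single libraries left out; miR-250-5p was 1.46 with DESeq2. The adjusted p of miR-250-5p among the 8 stages was 0.0966 with total counts, 0.0639 with no filter, 0.102 without the 5 most abundant arms and 0.00397 to 0.279 with single libraries left out, and that of miR-61-5p was 0.00121 to 0.108. At 120 against 60 min, miR-61-3p was -1.32 with no filter (adjusted p = 0.269), -1.05 with DESeq2's size factors, -0.85 with total counts and -1.97 to -0.61 with libraries left out. miR-250-3p was -1.86 to -0.37 with libraries left out, and it passed the test without 60 min replicate 2 (adjusted p = 0.0238) and without 180 min replicate 2 (adjusted p = 0.0392), in both cases with factors kept. At 500 against 60 min, miR-61-5p was -3.14 in a fit of the 6 libraries alone (adjusted p = 0.018), and miR-250-5p was -1.74 to 0.0816 with libraries left out. At 270 against 60 min, miR-250-5p was -1.56 without the 5 most abundant arms (adjusted p = 0.0749) and -3.17 to -1.29 with libraries left out, and miR-61-5p -5.71 to -3.69. For mir-61 over mir-250, leaving out libraries gave r of -0.0723 to 0.0868 and a log2 difference of -0.10 to 0.18 between 500 and 60 min. The cause of these shifts was not tested.

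Same-numbered libraries of different stages had deviations correlated at r over 0.1 in 40 of 84 pairs (range -0.14 to 0.46, median 0.09). The median for different numbers was -0.05, and 21 of 24 libraries correlated best with their own number. The labels do not say what the numbers share, and they were not taken to pair the samples. The main fits and the permutations over 24 libraries therefore do not account for anything shared by number. With the number as a replicate block, miR-250-3p at 120 against 60 min was -1.57 with an adjusted p of 0.0178, 84 arms were called among the 8 stages and 78 at 500 against 60 min (87 and 80 without it), and no other call of the 4 arms changed. Depth limits miR-61-5p most, with 327 reads in all, and then miR-250-5p, with 7 to 252 reads in a library.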

Other observations

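Among neighbouring miRNA genes, the reads of mir-61 and mir-250 stood in a comparatively steady ratio. In 17 pairs of hairpins on 1 strand that lie under 1000 bases apart in the annotation, the SD of the log2 ratio of summed reads over the 24 libraries ran from 0.20 to 3.08. mir-61 over mir-250 held the second place from the bottom, at 0.29, and only mir-64 over mir-65 was lower, at 0.20, with the same gap of 44 bases and 1097758 and 885326 reads. The next pair was mir-65 over mir-66, at 0.45, with a gap of 6 bases. Pairs of the mir-35 to mir-41 cluster, with gaps of 2 to 61 bases, ran from 1.21 (mir-35 over mir-36) to 3.08 (mir-40 over mir-41). This set of pairs was added after the ratio of mir-61 and mir-250 was known. The SD also takes in counting error, and the hairpins of some pairs have few reads, such as 596 for mir-41 and 631 for mir-37, against 8631 for mir-250. The ratios of neighbouring pairs in a cluster share a hairpin, and they are given as descriptions with no test.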
